A study of Gossypium with 24 samples.

Results

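Roots of the cotton variety 4847, which the submitters describe as sensitive to flooding, were compared after 96 h of darkness with and without waterlogging. The comparison rests on 6 of the 24 RNA sequencing libraries of the series, chosen by their labels: 3 from waterlogged roots and 3 from drained control roots, all taken at 0 h, the end of the dark period. Control and waterlogged seedlings had both been in the dark for those 96 h. The other 18 libraries are of the same variety after a further 24 h in the light and of the variety 9001, described as tolerant, at both times, with 3 libraries in each of the 8 groups. The labels call all of these groups a recovery phase, also at 0 h. The labels do not tell if replicate libraries are from different plants. P-values thus reflect the spread among libraries alone, and that spread may be technical.

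Water fills the air spaces of a flooded soil, and oxygen reaches the root only slowly. Plant roots short of oxygen are known to slow respiration, to ferment sugars for energy and to replace a large part of their messenger RNA, partly through transcription factors of the ethylene response family that are degraded while oxygen is present. Upland cotton is an allotetraploid and carries an A and a D set of chromosomes, so many genes have a copy in each. The gene IDs in the deposited tables carry the chromosome but no name or description, and no annotation was used here. Results are therefore given by ID, level, chromosome and size of change. Pathway lists and markers of root or shoot tissue could not be applied, and the labelled tissue was not checked against markers.

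The 6 libraries held 36096441 to 38699417 counts each, with 38194816 to 38699417 in the controls and 36096441 to 36857547 in the waterlogged group. Replicates were close to each other and far from the other group. Over genes with a mean of at least 1 CPM (the CPM unit is a count relative to the TMM-scaled library total), the median absolute log2 difference between a pair of control libraries was 0.10, and between a pair of waterlogged libraries 0.14 to 0.16. Between a control and a waterlogged library it was 1.01 to 1.02 in each of the 9 pairs. The biological coefficient of variation, a measure of replicate spread in excess of counting noise, was 6.07% in the controls and 10.5% in the waterlogged group. Over all 8 groups it was 5.78% to 14.4%. The 14.4% belonged to formerly waterlogged 4847 roots at 24 h. Their libraries held 21423479 to 22442564 counts, fewer than those of any other group. All results given below for waterlogged 4847 at 24 h rest on these libraries.

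Waterlogging changed the level of most genes expressed in 4847 roots. Of 50638 genes tested, 12675 were at least 2-fold higher in waterlogged roots, which is 25% of those tested, and 13757 were at least 2-fold lower, which is 27.2% (edgeR quasi-likelihood test, Benjamini-Hochberg adjusted p under 0.05). Without the 2-fold condition 18433 genes, or 36.4%, were higher and 19511, or 38.5%, were lower. The 3 waterlogged libraries lay above all 3 controls for 18108 genes (35.8%) and below all 3 for 19831 (39.2%). Among the 26432 genes with a 2-fold call, the libraries of the groups overlapped for only 1019.

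**Figure D1:**
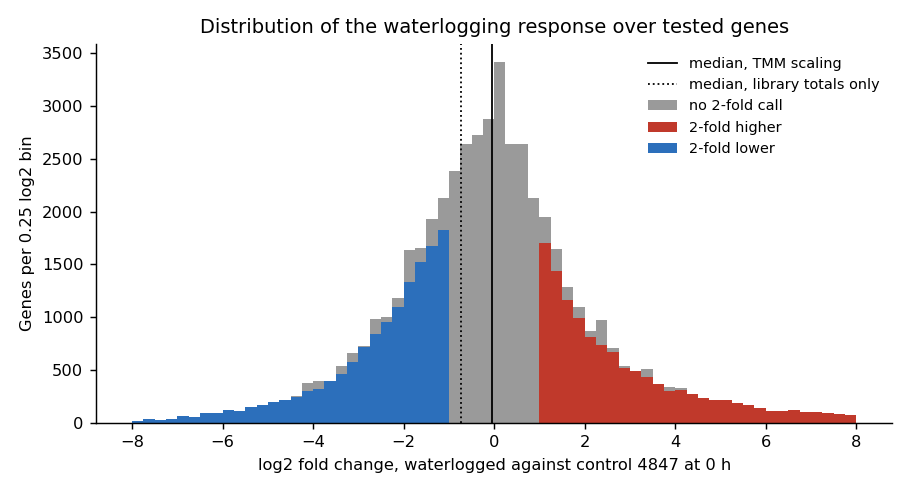
Number of tested genes (vertical axis) by log2 fold change for waterlogged over control roots of 4847 at 0 h (horizontal axis, bins of 0.25; 113 genes below -8 and 530 above 8 are not drawn). Red and blue bars are genes called at least 2-fold higher or lower, grey the rest, and lines mark the median of all tested genes at -0.06 with TMM scaling and -0.73 with library totals only.

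The changes were large, and with TMM scaling those of 64-fold or more were more often rises than falls. Of the genes called higher, 1737 had risen 16-fold to 64-fold and 1332 had risen 64-fold or more, together with 5284 that rose 2-fold to 4-fold and 4322 that rose 4-fold to 16-fold. Of the genes called lower, 6352 had fallen 2-fold to 4-fold, 5381 had fallen 4-fold to 16-fold, 1500 had fallen 16-fold to 64-fold and 524 had fallen 64-fold or more. Rises of 64-fold or more thus made up 10.5% of the higher genes, and falls of that size 3.81% of the lower genes. This excess of steep rises depends on the scaling. Library totals alone shift the median log2 fold change by -0.67, towards falls, and class sizes under them are not given here. Where folds of this size rest on few counts in the lower group, the class of a single gene is imprecise.

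The balance between higher and lower genes depended on the scaling. TMM, which sets the typical gene to no change, left a median log2 fold change of -0.06 over all tested genes, whereas scaling by library totals alone shifted that median by -0.67. With library totals 12122 genes were higher and 27272 lower. With limma on log2(FPKM + 1), where FPKM is scaled by library totals, 11348 were higher and 26030 lower. Since the RNA of a whole root sample was sequenced, fewer cells of a type and less RNA per cell cannot be told apart, nor does either scaling give RNA per root.

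**Figure D2:**
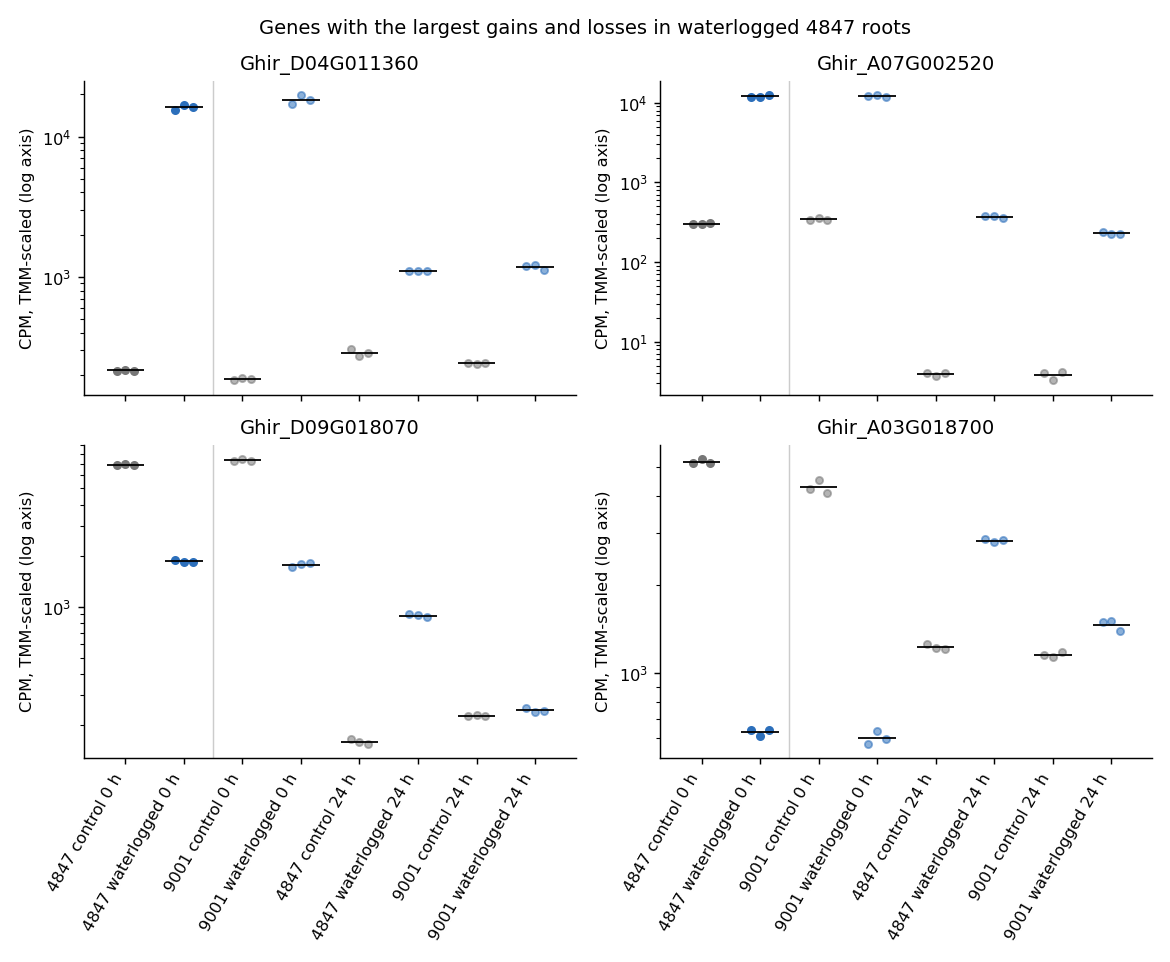
TMM-scaled CPM (vertical log axis) of the 4 IDs with the largest gain or loss in CPM, in each of the 24 libraries by group (horizontal axis; grey control, blue waterlogged, bar at the mean of 3 libraries). In 4847 at 0 h the waterlogged libraries of Ghir_D04G011360 lie at 15388 CPM and above and its controls near 216, and Ghir_D09G018070 and Ghir_A03G018700 lie lower in waterlogged roots at 0 h but higher at 24 h.

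The 4 IDs that moved most in absolute terms are those with the largest gain and the largest loss in mean CPM. That scale is used for levels and gains in this and the following sentences. The IDs were picked in the libraries compared, among called genes whose groups did not overlap. Separate groups and a low adjusted p in this comparison were thus conditions of the choice. They describe these IDs and test nothing. Ghir_D04G011360, on chromosome D04 with 3935 bases of gene model, was at 215.8, 217 and 215 CPM in the controls and at 15388, 16717 and 16331 CPM in the waterlogged libraries. No library of one group came near the other. Its mean rose from 216 ± 1.11 to 16145 ± 684 CPM (SD, n = 3 each), 74.7-fold, and its log2 fold change was 6.22 (SE 0.0477, edgeR adjusted p = 5.85e-53). It alone held 1.06% of all counts in waterlogged roots, against 0.0226% in controls.

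Ghir_A07G002520, on chromosome A07, was at 303, 301 and 308 CPM in the controls and at 11786, 11972 and 12409 CPM under waterlogging. The groups were again far apart, and the mean rose from 304 ± 3.46 to 12056 ± 320.0 CPM (SD, n = 3 each), 39.7-fold, and its log2 fold change was 5.31 (SE 0.0429, edgeR adjusted p = 2.77e-52). Per length it was the most abundant ID of waterlogged roots, with a mean of 5441 FPKM (counts scaled to library total and gene length) against 219 in controls.

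The ID with the largest loss was the most abundant of the controls per length. Ghir_D09G018070, on chromosome D09, was at 6876, 6934 and 6815 CPM in controls and at 1886, 1842 and 1825 CPM under waterlogging, or 4812 and 810 as mean FPKM. Every waterlogged library lay below every control, as the choice required, and the log2 fold change was -1.89 (SE 0.0312, edgeR adjusted p = 8.32e-41). Ghir_A03G018700, on chromosome A03, went from 5163, 5332 and 5166 CPM to 640.1, 613 and 640.2 CPM. It was thus 8.27-fold higher in controls, and its log2 fold change was -3.05 (SE 0.0390, edgeR adjusted p = 4.66e-45). By the choice, its groups did not overlap either. Even under waterlogging both remained well expressed, with at least 14578 counts in each library.

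The most abundant genes differed between the groups. Of the 100 IDs with the highest mean FPKM in control 4847 roots, 28 were also among the 100 highest under waterlogging. The 100 highest of the controls ran from 382 to 4812 FPKM; 42 of them were 2-fold lower and 14 were 2-fold higher in waterlogged roots. Of the 100 highest of waterlogged roots, 85 were 2-fold higher there and 1 was 2-fold lower. Since these IDs were picked by their level in the libraries compared, those counts describe the lists and test nothing. The lists were largely those of 9001 too, where 92 of the 100 control IDs and 82 of the 100 waterlogged IDs were among the 100 highest of the matching group.

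The counts themselves moved to the genes that rose. The genes called 2-fold higher held 18.8%, 18.8% and 18.8% of counts in the control libraries and 62.9%, 63.3% and 62.9% in the waterlogged libraries. The genes called 2-fold lower held 33.5% in each control library and 5.11%, 5.03% and 5.10% in the waterlogged libraries. These shares follow in part from the choice of the genes. The same genes, chosen by their change in 4847, were therefore read in 9001 at 0 h, where the risers held 18.8% ± 0.0130 of counts in controls and 66.4% ± 0.0873 under waterlogging (SD, n = 3 each). The fallers held 34.1% ± 0.0257 and 4.37% ± 0.0138 in 9001. After 24 h of recovery in 4847 the risers held 30.1% ± 0.0484 of counts in formerly waterlogged roots and 19.2% ± 0.0469 in controls, and the fallers held 22.2% ± 0.0410 and 35.1% ± 0.0518.

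**Figure D3:**
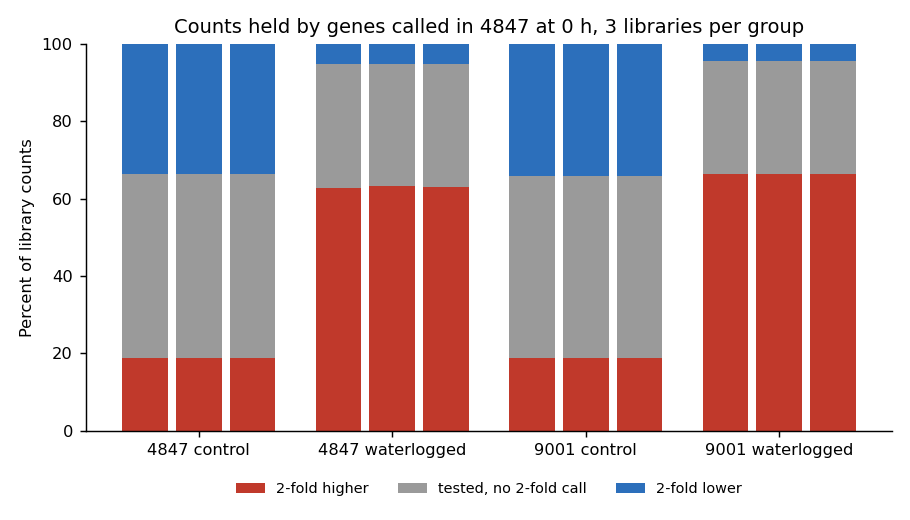
Percent of the counts of each library (vertical axis) held by genes called 2-fold higher (red) or lower (blue) in 4847 at 0 h, and by the other tested genes (grey), in the 3 libraries of each group at 0 h. The risers hold about 18.8% in controls of both varieties and 63.0% and 66.4% as means in waterlogged 4847 and 9001.

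Some genes were detected in 1 of the 2 groups only. No count in any control library and at least 1 CPM in every waterlogged library was found for 200 of the 50638 tested IDs. Of these, 61 had at least 10 CPM in each. The 200 had a median of 4.90 CPM under waterlogging and at most 650.05 CPM as a group mean. The reverse, no count under waterlogging and at least 1 CPM in every control, was found for 57 IDs, of which 3 reached 10 CPM. With TMM scaling, 1 CPM is fewer counts in a waterlogged library than in a control, so the bar was lower for the 200. They had at least 81 counts over the 3 waterlogged libraries, and the 57 at least 123 over the controls. In 9001 at 0 h, 122 of the 200 and 18 of the 57 met the same rule. At 24 h in 4847, 50 of the 200 were still at 1 CPM or more in each formerly waterlogged library, and 7 in each control library. Of the 57, 41 were at 1 CPM or more in each control library at 24 h, and 7 in each formerly waterlogged library.

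The share of risers and fallers varied with the level in dark roots. To take the level from libraries other than the 6 compared, genes were ranked by their mean FPKM in the 3 control libraries of 9001. They were split into 10 bins of equal size. The 9001 controls entered the same fit, through its filter, scaling and spread, but the fold change does not compare them. Their 100 highest IDs shared 92 with the 4847 controls, so the ranking is only partly separate. In the lowest bin, at up to 0.0481 FPKM, 46.5% of genes were 2-fold higher in waterlogged 4847 and 2.82% were lower. Genes this low in dark controls passed the filter on low counts mainly through other groups, the waterlogged ones among them, and could hardly fall, so this bin says nothing of low genes at large. In the fourth bin, at a median of 0.995 FPKM, 22.0% were higher and 38.8% lower, and in the top bin, from 19.9 FPKM up, 18.7% were higher and 30.3% lower. Ranked instead by the mean over the 6 compared libraries, which includes the waterlogged level, 41.3% of the top bin were higher and 17.7% lower. With library totals as the only scaling those last shares were 27.8% and 29.2%, so their order turned.

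**Figure D4:**
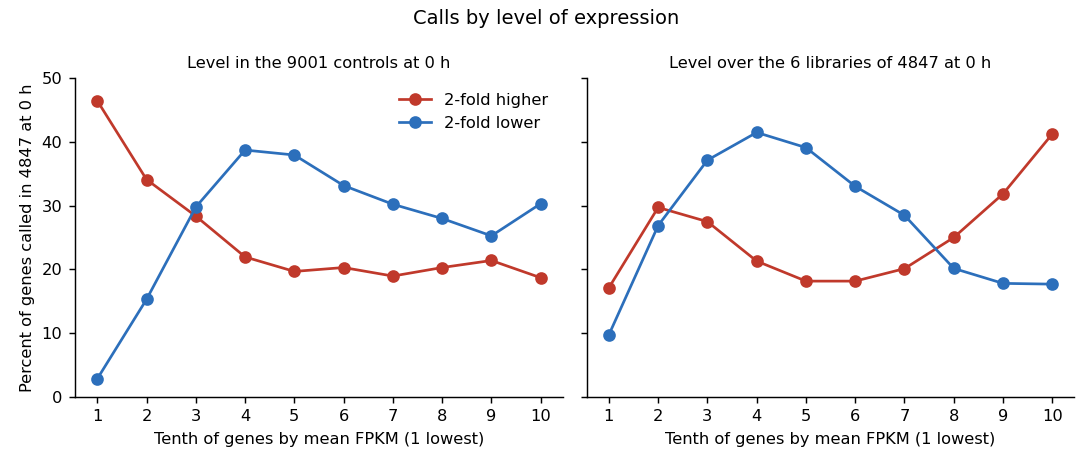
Percent of genes called 2-fold higher (red) or lower (blue) in 4847 at 0 h (vertical axis) in 10 equal bins of the tested genes by mean FPKM (horizontal axis, 1 lowest), with levels from the 9001 controls at 0 h (left) or from the 6 libraries compared (right). The lowest bin on the left, with 46.5% risers, holds genes that passed the filter mainly through other groups, and the top bin on the right has 41.3% risers.

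Genes on all 26 chromosomes changed at similar rates. The share of tested genes that were 2-fold higher ran from 22.3% on D04 to 28.7% on A08, and the share 2-fold lower from 24.9% on A08 to 30.8% on D04. For the A set as a whole 25.4% of 24904 tested genes were higher and 27.0% lower, and for the D set 24.7% of 25734 and 27.3%. The counts nevertheless shifted slightly towards A chromosomes. They held 48.88%, 48.90% and 48.91% of counts in the controls and 49.67%, 49.63% and 49.70% in the waterlogged libraries, with no overlap. The difference was 0.768 percentage points, and the two-sided exact permutation test gave p = 0.1, the lowest it can reach with 3 libraries a group. Without the 100 most abundant genes it was 1.04 points. In 9001 at 0 h the waterlogged libraries were also above their controls, by 0.173 points (exact permutation p = 0.1). In 4847 at 24 h they were below them, by a difference of -1.31 points (exact permutation p = 0.1). In 9001 at 24 h the waterlogged libraries were below their controls too, by a difference of -0.590 points (exact permutation p = 0.1). Copies of a gene in the A and D sets can be nearly identical, and how reads matching both were counted is not given in the sources used here.

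The response of 4847 was mostly shared by 9001. The size classes were set by the fold change in 4847, but the 9001 and 24 h libraries entered the same fit and so took part in its filter, scaling and spread. A fit of the 6 compared libraries alone tested 42595 genes and called 10837 of the 12675 risers and 12428 of the 13757 fallers. Of the genes that rose 2-fold to 4-fold in 4847, 79.1% were also 2-fold higher in 9001, against 25.8% of all tested genes. The share was 90.8% for rises of 4-fold to 16-fold, 88.6% for 16-fold to 64-fold and 98.1% for 64-fold or more. Of the genes that fell, 81.0%, 93.5%, 88.5% and 94.1% in the same classes of size were 2-fold lower in 9001, against 29.8% of all tested genes. Opposite 2-fold calls in 9001 were found for 38 of the risers and 26 of the fallers.

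The size of the response was compared for genes chosen in either variety. Genes that rose 64-fold or more in 4847 had a median log2 fold change of 7.58 there and 7.71 in 9001. Genes chosen by the same rise in 9001 had 7.74 in 9001 and 6.97 in 4847, and those chosen by a rise of 16-fold to 64-fold in 9001 had 4.78 and 4.24. Falls of 16-fold to 64-fold chosen in 9001 had medians of -4.78 in 9001 and -3.86 in 4847, while those chosen in 4847 had -4.73 in 4847 and -4.49 in 9001. Rises of 2-fold to 4-fold and of 4-fold to 16-fold chosen in 4847 had medians of 1.41 and 2.73 in 4847 and of 1.46 and 2.85 in 9001. Falls of these sizes chosen in 4847 had -1.45 and -2.69 in 4847 and -1.56 and -2.80 in 9001. Under scaling by library totals, the median difference between the responses of 4847 and 9001 shifted by 0.18 in favour of 4847, which is more than the gap of the first of these pairs.

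A direct test of the difference between the varieties called fewer genes. The response of 4847 exceeded that of 9001 by at least 2-fold for 1612 genes, 3.18% of those tested, and was at least 2-fold lower for 1409, or 2.78% (edgeR interaction test, adjusted p under 0.05). Without the 2-fold condition 4789 genes, or 9.46%, had the higher and 5052, or 9.98%, the lower response in 4847. The largest part of the first group, 624 genes, fell 2-fold in both varieties and fell less in 4847, and a further 486 fell in 9001 with no 2-fold call in 4847. Only 214 genes rose in 4847 with no 2-fold call in 9001, and 154 rose in both. In the second group 528 genes rose in both and rose less in 4847, 332 rose in 9001 with no 2-fold call in 4847, and 240 fell in 4847 with no 2-fold call in 9001. These counts describe groups chosen by the difference itself. With limma on log2(FPKM + 1), 422 and 310 genes differed at least 2-fold, and with library totals as the only scaling 2582 and 961.

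The 4 IDs with the largest gains and losses moved almost equally in both varieties. The response of Ghir_D04G011360 was lower in 4847 than in 9001 by a difference of -0.38 on the log2 scale (SE 0.0545, edgeR adjusted p = 4.69e-07), on rises of 6.22 and 6.61. For Ghir_A07G002520 the difference of responses was 0.15 (SE 0.0509, edgeR adjusted p = 0.0266), for Ghir_D09G018070 0.15 (SE 0.0427, edgeR adjusted p = 0.00910) and for Ghir_A03G018700 -0.22 (SE 0.0512, edgeR adjusted p = 0.00124). The call of Ghir_D04G011360 held under each alternative setting. That of Ghir_A03G018700 was lost under scaling by library totals, with a difference of -0.04 (edgeR adjusted p = 0.576), and with both limma settings. Those of Ghir_A07G002520 and Ghir_D09G018070 were lost with RLE scaling (edgeR adjusted p = 0.106 and 0.0592). Ghir_A07G002520 was also not called with DESeq2 (adjusted p = 0.0554), with the replicate block (edgeR adjusted p = 0.0580), without control replicate 2 (edgeR adjusted p = 0.0597) or without waterlogged replicate 3 (edgeR adjusted p = 0.0854).

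**Figure D5:**
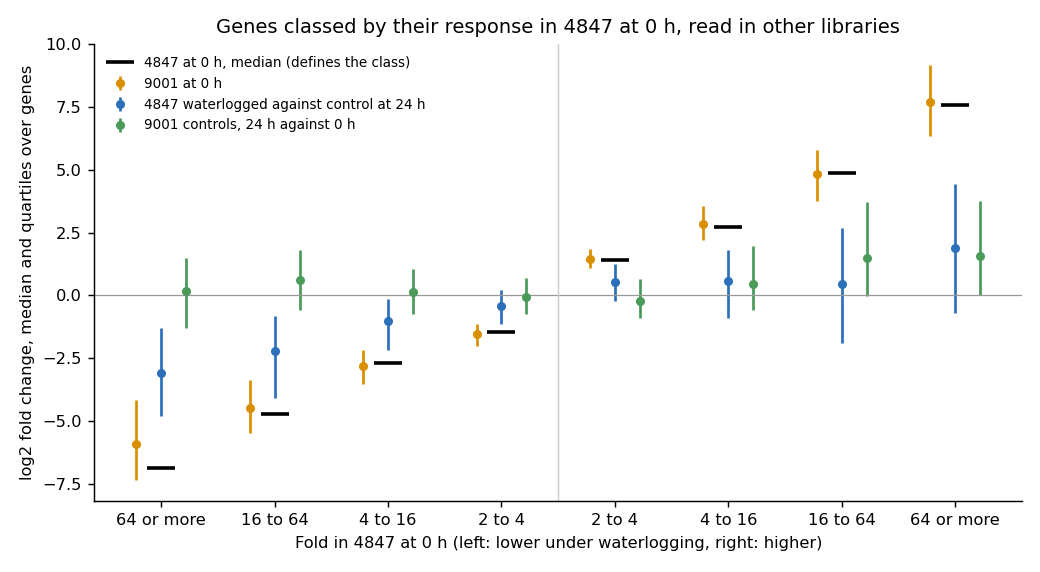
Median log2 fold change with quartiles over genes (vertical axis) for genes classed by the size of their fall (left) or rise (right) in 4847 at 0 h (horizontal axis). Black bars are the medians that define the classes, orange points 9001 at 0 h, blue points waterlogged against control 4847 at 24 h and green points 9001 controls at 24 h against 0 h, such as 7.58, 7.71, 1.87 and 1.55 for rises of 64-fold or more.

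The larger a fall at 0 h, the more often the gene was 2-fold below its control at 24 h. Genes that rose were more often 2-fold above that control than tested genes at large. The 24 h libraries of 4847 came from plants drained and returned to the light for 24 h, and the classes rest on the fold change at 0 h. Formerly waterlogged 4847 libraries at 24 h had the fewest counts and the largest replicate spread of all groups. What this does to the shares below was not tested. The control itself can change between 0 h and 24 h. In the 9001 controls 39.8% of the falls of 16-fold to 64-fold were higher at 24 h and 18.1% lower. Formerly waterlogged roots were not compared with their own level at 0 h, so the shares do not tell if a gene stayed low or high. All tested genes were not matched for level. Of the genes that fell 2-fold to 4-fold, 28.0% were 2-fold lower than the 24 h control, close to the 27.8% of all tested genes. This share was 49.6% for falls of 4-fold to 16-fold, 68.6% for 16-fold to 64-fold and 73.3% for 64-fold or more, where the median log2 fold change at 24 h was -3.10. Of the genes that rose, 31.3%, 38.8%, 38.9% and 49.4% in rising order of size were 2-fold higher than the 24 h control, against 19.4% of all tested genes. In these classes 12.9%, 20.8%, 27.9% and 15.2% were 2-fold lower than the control, none clearly above the 27.8% of all tested genes. With library totals as the only scaling, 78.9% of the falls of 16-fold or more were 2-fold lower than the 24 h control, against 43.1% of all tested genes.

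The IDs with the largest gains and the largest losses took different courses. At 24 h Ghir_D04G011360 was at 1112 ± 0.528 CPM in formerly waterlogged 4847 roots and 290.3 ± 15.0 CPM in controls (SD, n = 3 each), and the log2 fold change was 1.94 (SE 0.0396, edgeR adjusted p = 3.82e-37). Ghir_A07G002520 was at 372 ± 8.91 CPM against 3.91 ± 0.231 CPM in controls, where it had itself dropped from 304 CPM at 0 h. Ghir_D09G018070 lay below its control at 0 h but above it at 24 h, at 885 ± 18.5 against 159 ± 5.26 CPM, after the control had dropped from 6875 CPM. Its log2 fold change at 24 h was 2.48 (SE 0.0324, edgeR adjusted p = 1.19e-44). Ghir_A03G018700 did likewise, at 2821 ± 33.7 against 1226 ± 22.9 CPM, and its log2 fold change was 1.20 (SE 0.0365, edgeR adjusted p = 1.87e-30).

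Genes that flooding raised steeply in the dark were more often called higher at 24 h in control roots than tested genes at large. The 2 sets were not matched for level in the dark. This was read in the controls of 9001, which share no library with the comparison in 4847. There 26.4% of all tested genes were 2-fold higher at 24 h than at 0 h and 16.8% were lower. Among genes that rose 2-fold to 4-fold under waterlogging in 4847, 18.3% were higher at 24 h in those controls and 21.1% were lower. For rises of 16-fold to 64-fold the shares were 50.8% and 9.44%, and for 64-fold or more 42.7% and 4.95%. Of genes that fell 16-fold to 64-fold in 4847, 39.8% were higher and 18.1% were lower at 24 h in the 9001 controls. With limma on log2(FPKM + 1), 28.6% of the rises of 16-fold or more were higher at 24 h in those controls, against 47.3% with edgeR and 18.7% of all tested genes with the same limma setting. The falls of 16-fold or more turned with the setting. With edgeR 38.2% of them were higher at 24 h in those controls, above all tested genes, but with limma on log2(FPKM + 1) 16.8% were, below the 18.7%. With limma on log2(FPKM + 0.1) it was 25.2%, against 33.8% of all tested genes. Genes near 0 in the dark could pass the filter through the 24 h libraries, which bears on the shares for steep rises. Such genes could also hardly fall, so the low shares of 9.44% and 4.95% say little. How far the higher shares of the steep rises follow from their low level was not tested. The controls moved into the light over those 24 h, so light and elapsed time cannot be told apart.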

How the data were processed

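Root RNA was purified on Qiagen RNeasy columns and turned into libraries with SMARTer mRNA-Seq reagents, per the labels' protocols. The authors deposited a table of whole-number counts for 60633 gene IDs (29793 A and 30840 D), without normalization, and an FPKM table of the same IDs. For 60632 IDs the deposited FPKM equalled the count per library total and per whole gene length (relative difference up to 1e-06), which gave the lengths; 1 malformed line was left out. The sources used here do not give the aligner, the counter, strand use or how multiply matching reads were handled. The build is mm10 per the submitters' processing notes, a mouse assembly, so the cotton assembly used for counting is unknown, and no coordinates or sequences are given.

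Counts were tested with edgeR 4.0.16 in R 4.3.3 (filterByExpr, TMM, glmQLFit, glmQLFTest), with all 24 libraries in 1 fit, 1 mean per group and 16 degrees of freedom left for the residuals; 50638 genes were tested and p-values Benjamini-Hochberg adjusted over all of them at 0.05. The spread is shared over groups, so p-values may be too small for more variable groups such as the waterlogged ones. An SE is the log2 fold change divided by the square root of its F statistic. CPM are TMM-scaled, with mean factors of 1.05 in control and 0.654 in waterlogged 4847 at 0 h. Single values per library were compared with exact two-sided permutation tests. The alternatives were RLE, upper-quartile and library-total scaling, no filter, DESeq2 1.42.0, limma 3.58.1 on log2(FPKM + 1) and log2(FPKM + 0.1), fewer libraries, a replicate block and each of the 6 replicates left out. Named IDs are the 2 with the largest gain and the 2 with the largest loss in mean CPM among 2-fold calls whose libraries do not overlap. The comparison, this rule and the summaries were chosen with earlier results of these data known, and the summaries by level, size class and ID order after seeing the values. No name table was at hand, so planned gene lists and markers were not applied.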

Additional observations from a re-analysis of the deposited data

Results flagged for a closer look

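The direct test between the varieties set 1612 genes apart as responding at least 2-fold higher at 0 h in 4847 than in 9001, and 1409 as responding at least 2-fold lower. The 4 IDs with the largest gains and losses also differed between the varieties in this test, by -0.38 for Ghir_D04G011360, 0.15 for Ghir_A07G002520, 0.15 for Ghir_D09G018070 and -0.22 for Ghir_A03G018700 on the log2 scale, small beside their responses.

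Opposite directions at 0 h and 24 h in 4847, in all libraries, were seen for 4 measures, and the difference between the times was not tested for them. The share of counts on A chromosomes was above control at 0 h and differed from it by -1.31 percentage points at 24 h. The count-weighted mean gene length was above control at 0 h and differed by -154 bases at 24 h. Neither value at 24 h was particular to 4847. In 9001 at 24 h the A share differed from control by -0.590 percentage points and the mean length by -147 bases. Ghir_D09G018070 and Ghir_A03G018700 were below control at 0 h and above it at 24 h, with log2 fold changes of 2.48 and 1.20.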

How the results depend on the processing

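Counts of genes moved with the scaling and the unit. For waterlogging in 4847 at 0 h, library totals as the only scaling gave 12122 higher genes, 8195 of them at least 2-fold, and 20764 lower at least 2-fold. Limma on log2(FPKM + 1) gave 11348 higher and 4519 at 2-fold, and on log2(FPKM + 0.1) 11754 and 7246. For the difference between varieties, library totals gave 9491 genes with the higher response in 4847 (2582 at 2-fold) and 3136 with the lower. Limma on log2(FPKM + 1) gave 8587 higher, 422 and 310 at 2-fold in either direction, and on log2(FPKM + 0.1) 8689 higher and 3200 lower. The cause was not tested; a pseudocount shrinks the folds of low genes by construction. The other 121 values of the main results stayed within 1.5 times or kept their direction. Leaving out 1 of the 6 replicates gave 12517 to 12604 genes 2-fold higher and 13468 to 13642 lower. The share of 2-fold risers also called 2-fold higher was 64.7% with library totals and 35.7% with limma on log2(FPKM + 1). The mean gene length of counts rose by 20.3 in place of 46.8 bases without the 100 most abundant genes.

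Deviations of same-numbered control and waterlogged libraries correlated at 0.01, -0.01 and 0.01 for numbers 1 to 3. All tested genes entered, also those with few counts, so such small values cannot tell if the libraries were paired. With the replicate block 12303 genes were 2-fold higher and 13573 lower. Differently numbered libraries correlated as weakly, such as control 2 with waterlogged 3 at 0.02. Depth limited the genes with few counts in a group, whose folds are imprecise.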

Other observations

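Short genes rose somewhat more often than long ones in waterlogged 4847 roots at 0 h. In the shortest of 5 equal bins of tested genes, with models of up to 1119 bases, 28.7% were 2-fold higher and 23.3% lower. In the other bins 23.5% to 24.8% were higher and 27.2% to 28.6% lower. The median length was 1848 bases for the 2-fold risers, 1924 for the 2-fold fallers and 1904 for the rest. Weighted by counts, the mean gene length went the other way. It was 2611, 2607 and 2606 bases in the controls and 2654, 2653 and 2657 in the waterlogged libraries, which did not overlap. The difference was 46.8 bases (exact two-sided permutation p = 0.1, the smallest possible), and 20.3 bases without the 100 most abundant genes. In 9001 at 0 h the groups overlapped, with a difference of 12.1 bases (exact permutation p = 0.3).

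IDs whose numbers follow each other on a chromosome changed in the same direction more often than the separate shares give. Of 38810 such pairs of tested genes, 8.39% were both 2-fold higher, where the square of the share of risers is 6.27%. A further 8.77% were both lower, where the square is 7.38%, and 10.9% were opposite, where the product for both orders is 13.6%. Under the scalings tried and DESeq2, the ratio of observed to product for pairs that rose was 1.30 to 1.53, and with limma on log2(FPKM + 1) it was 2.13. Whether adjoining IDs are copies of one another, which could share reads, was not tested. Runs of 5 or more IDs in 1 direction numbered 61 for rises and 57 for falls. The longest were 11 IDs on D08 that all rose, of which 8 also rose 2-fold in 9001, and 4 runs of 9. A run of 9 on D09 went from 68.2, 72.2 and 70.6 summed CPM in controls to 3360, 3664 and 3447 under waterlogging, and 7 of its IDs rose 2-fold in 9001. Its members changed unequally, with log2 fold changes from 1.30 to 6.99 and a median of 2.28. A run of 9 on D05 went from 141, 147 and 142 to 12.1, 15.3 and 14.7 summed CPM, and all 9 fell 2-fold in 9001. These runs were picked after their values were seen.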
